A study of Apostichopus japonicus with 3 samples.

Results

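The lipid carriers described here are 9 isotigs, assembled transcript sequences from the intestine of the sea cucumber Apostichopus japonicus, out of 20712 isotigs counted in any library. They were chosen by the text of their best protein match, which had to name apolipoprotein, apolipophorin, vitellogenin or microsomal triglyceride transfer and not a receptor. The choice also named isotig13070 and isotig17734 with their read counts known, so the values of the members are a description and carry no test. The study sampled intestines at 3 stages, 1 library for each. Animals of the first stage were not aestivating (non-aestivation), those of the second were in deep aestivation, the dormant summer state without feeding, and those of the third were arousing from it (arousal). All 3 groups are untreated as far as the labels say. Each stage had at least 15 individuals, and the sources used here do not say whether they were pooled for the library. Of the 9 isotigs, 1 matches apolipoprotein B, 2 match vitellogenin, 1 apolipophorin and 2 microsomal triglyceride transfer protein, a lipid transfer protein that is not secreted. The other 3 match apolipoprotein A-I binding protein, an enzyme that repairs damaged nicotinamide cofactors and binds the apolipoprotein but is not itself a carrier.

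Apolipoprotein B, vitellogenin, the apolipophorins and microsomal triglyceride transfer protein belong to one family of large lipid transfer proteins, which share a lipid-binding module near the amino end. Apolipoprotein B is the scaffold of the lipoprotein particles that leave the vertebrate intestine and liver, apolipophorins do this work in insect blood, and vitellogenin carries lipid to the eggs of many egg-laying animals. Microsomal triglyceride transfer protein stays in the endoplasmic reticulum and loads lipid onto the nascent particle. In sea cucumbers and sea urchins the abundant yolk protein is another molecule, the transferrin-like major yolk protein, which the gut also makes.

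The libraries held 1.02 M uniquely aligned reads in non-aestivation, 0.893 M in deep aestivation and then 0.945 M in arousal. Since no stage was replicated, no difference between stages has a replicate check. The intervals given with folds are exact 95% conditional binomial intervals for the ratio of read shares. Intervals and floors cover counting error only and leave out variation between animals and libraries. They treat reads as independent, but amplified reads that carry no molecular identifiers are not independent molecules. The intervals may therefore be too narrow even for counting error. The tables of non-aestivation and arousal carry each other's stage code in their file names, while every stage named here follows the sample label. Were the file names right instead, non-aestivation and arousal would change places in everything below. In bulk intestine, fewer cells of a type and less RNA per cell cannot be told apart.

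Apolipoprotein B (isotig13070) was the most abundant carrier per length in deep aestivation and arousal, was level with isotig14304 within counting error in non-aestivation, and stood highest in deep aestivation. The isotig is 6323 bp long, the longest of the 9, its match to the sea urchin Strongylocentrotus purpuratus had an E-value of 0, and reads covered 99.35% to 99.75% of its length in the 3 libraries. It had 1773 reads in non-aestivation, 13091 in deep aestivation, with 8906 in arousal. Per length this was an RPKM (reads scaled by isotig length and by the total of aligned reads) of 274 in non-aestivation, 2319 in deep aestivation and then 1491 in arousal. By reads it ranked 59 among all isotigs in non-aestivation, 5 in deep aestivation and then 6 in arousal. Its share of all reads was 0.173% (exact 95% binomial interval 0.165 to 0.182), 1.47% (1.44 to 1.49) and 0.943% (0.923 to 0.962), in the same order.

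Deep aestivation was thus 8.46-fold above non-aestivation for apolipoprotein B (8.05 to 8.89), and arousal 5.44-fold above it (5.17 to 5.72). From deep aestivation to arousal its share was 1.56-fold lower (1.51 to 1.60). The order of the libraries was deep aestivation, arousal, non-aestivation. The 3 intervals of its share do not overlap, though they may be too narrow even for counting error.

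**Figure D1:**
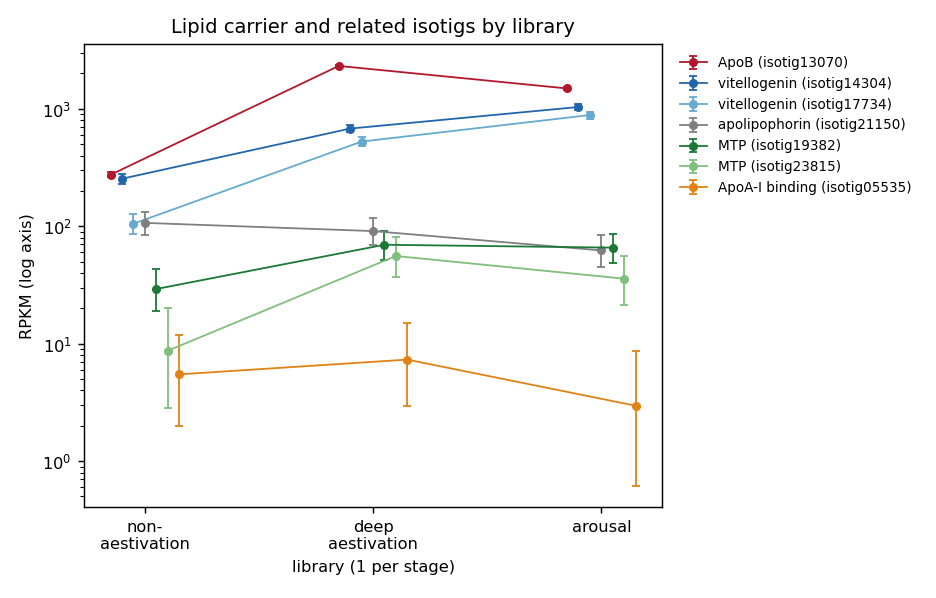
RPKM on a log axis for the 7 member isotigs averaging at least 1 RPKM, in the 3 libraries (1 per stage). Points are the deposited values, bars are exact 95% Poisson intervals of the read count and lines only join points of the same isotig. Apolipoprotein B peaks at 2319 in deep aestivation, while both vitellogenin isotigs are highest in arousal.

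The vitellogenin matches had another order, with arousal highest. Isotig14304 (1607 bp), whose best match is a sea urchin protein described as vitellogenin fused with superoxide dismutase, had 417 reads in non-aestivation, 974 in deep aestivation, with 1574 in arousal, or an RPKM of 254, 679 and 1037. Isotig17734 (977 bp), matching a vitellogenin-like protein of the acorn worm Saccoglossus kowalevskii, had 105, 459 and 817 reads, or an RPKM of 105, 526 and 885. Both were lowest in non-aestivation and highest in arousal. Their matches are weak beside that of apolipoprotein B, with E-values of 9.61e-07 for isotig14304 and 7.10e-11 for isotig17734. The name of each therefore rests on a short or distant resemblance. Whether isotig14304 resembles the vitellogenin or the superoxide dismutase part of the fused protein is not known, and vitellogenin is used below as a label.

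Against non-aestivation, deep aestivation was 2.67-fold higher for isotig14304 (2.38 to 3.01) and 5.01-fold higher for isotig17734 (4.04 to 6.25). Arousal was 4.08-fold (3.66 to 4.56) and 8.42-fold (6.86 to 10.4) above non-aestivation. From deep aestivation to arousal the shares were 1.53-fold higher for isotig14304 (1.41 to 1.66) and 1.68-fold higher for isotig17734 (1.50 to 1.89), where apolipoprotein B was lower. Both isotigs together held 0.0511% of reads in non-aestivation (0.0468 to 0.0556), 0.161% in deep aestivation (0.152 to 0.169) and then 0.253% in arousal (0.243 to 0.263).

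Ratios between isotigs of the same library do not depend on how libraries are scaled. Per length, apolipoprotein B stood at 1.08 times isotig14304 in non-aestivation (0.971 to 1.21), 3.42 times in deep aestivation (3.20 to 3.65) and then 1.44 times in arousal (1.36 to 1.52). Over isotig17734 its RPKM ratio was 2.61 (2.14 to 3.21), 4.41 (4.01 to 4.85) and 1.68 (1.57 to 1.81). Relative to either vitellogenin isotig, apolipoprotein B was therefore highest in deep aestivation. Between deep aestivation and arousal the ratio of apolipoprotein B reads to those of isotig14304 was 2.38-fold lower (exact conditional 95% interval 2.18 to 2.59), and to those of isotig17734 2.62-fold lower (2.32 to 2.95).

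The vitellogenin isotigs also differed from each other. Isotig14304 had 2.41 times the RPKM of isotig17734 in non-aestivation (1.94 to 3.02), 1.29 times in deep aestivation (1.15 to 1.44), with 1.17 times in arousal (1.08 to 1.28). The non-aestivation interval lies above those of the other libraries, whose own intervals overlap. Their reads were thus not in a constant proportion. Whether they come from the same gene cannot be read from the tables.

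**Figure D2:**
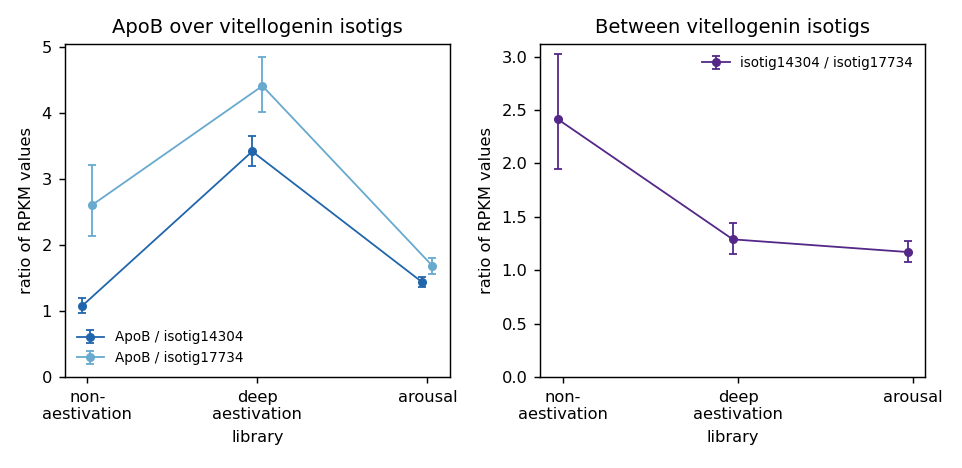
Ratios of RPKM values within each library, which library scaling does not touch: apolipoprotein B over each vitellogenin isotig (left) and isotig14304 over isotig17734 (right), with exact 95% intervals. The left ratios peak in deep aestivation at 3.42 and 4.41, and the right ratio is highest in non-aestivation at 2.41.

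Microsomal triglyceride transfer protein, the loading factor, was present at far lower levels and was higher outside non-aestivation. Isotig19382 (837 bp, E-value 6.80e-78) had 25 reads in non-aestivation, 52 in deep aestivation and then 52 in arousal, or an RPKM of 29.2, 69.6 and 65.8. Isotig23815 (562 bp, E-value 9.76e-21) has the same best match, a sea urchin protein, and had 5, 28 and 19 reads, or an RPKM of 8.70, 55.8 and 35.8. For each of them non-aestivation was the lowest library. Deep aestivation was 2.38-fold above it for isotig19382 (1.45 to 4.01) and 6.41-fold for isotig23815 (2.44 to 21.3).

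Since they share a match, their reads were also summed, giving 30 in non-aestivation, 80 in deep aestivation and then 71 in arousal. The sum was 3.05-fold higher in deep aestivation than in non-aestivation (1.98 to 4.81) and 2.56-fold higher in arousal (1.65 to 4.07). Arousal and deep aestivation were not distinguishable at this depth, with a fold of 0.839 (0.601 to 1.17). The RPKM of apolipoprotein B was 9.39 times that of isotig19382 in non-aestivation (6.34 to 14.5), 33.3 times in deep aestivation (25.4 to 44.6), with 22.7 times in arousal (17.3 to 30.4).

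The apolipophorin match (isotig21150, 714 bp, E-value 1.12e-16 to a sea urchin apolipophorin precursor) did not share the low level in non-aestivation. It had 78 reads in non-aestivation, 58 in deep aestivation and then 42 in arousal, or an RPKM of 107, 91.0 and 62.3. Deep aestivation over non-aestivation was 0.852 (0.596 to 1.21), an interval that spans 1. Arousal was 1.72-fold below non-aestivation (1.16 to 2.56), the only member with at least 50 reads that was lower there. The apolipoprotein B reads per apolipophorin read were 22.7 in non-aestivation (18.1 to 28.9), 226 in deep aestivation (174 to 297) and then 212 in arousal (157 to 294).

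The apolipoprotein A-I binding protein isotigs were close to the limit of detection. Isotig05535 (1071 bp) had 6 reads in non-aestivation, 7 in deep aestivation, with 3 in arousal. Isotig05537 had 0, 1 and 1 reads and isotig05536 had 0, 0 and 1. A library at 0 reads allows a share of up to 0.000293% in non-aestivation and 0.000336% in deep aestivation, at a floor of 3 reads. The 3 isotigs have the same best match with nearly equal E-values, and the authors counted uniquely aligned reads, so reads common to near-identical isotigs are missing and these counts are uncertain. Summed, they gave 6, 8 and 5 reads, and no difference between libraries was detectable at this depth.

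**Figure D3:**
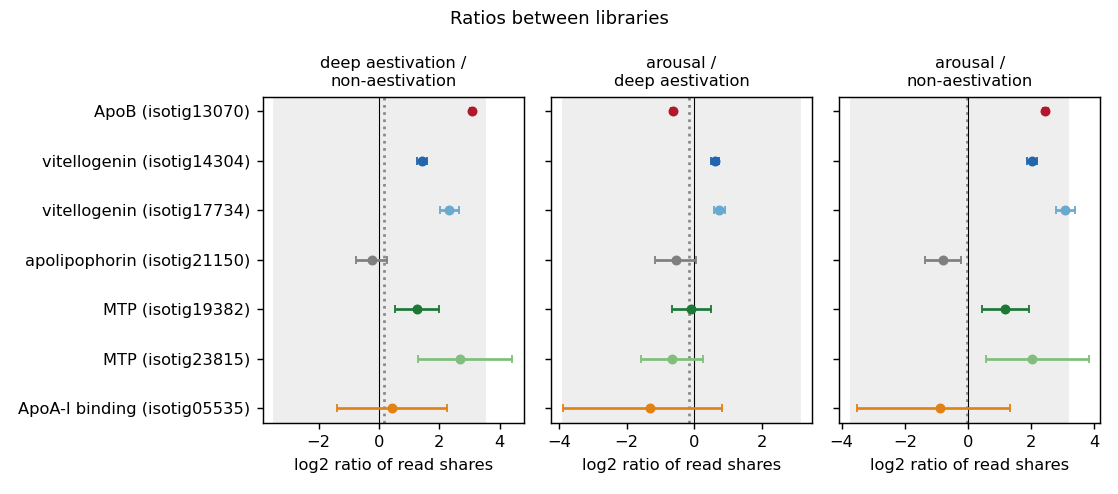
Log2 ratio of read shares between libraries for the 7 member isotigs averaging at least 1 RPKM, with exact 95% intervals. The grey band holds the central 95% of all 18352 isotigs on the log2(RPKM + 0.5) scale, the dotted line is their median and the solid line is 0. Apolipoprotein B is at 3.08, -0.64 and 2.44 in the panels from left to right, while isotig17734 is at 2.32, 0.75 and 3.07.

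An isotig was called higher or lower when its log2 ratio of RPKM + 0.5 was at least 1 in size and the exact interval of its read share ratio at the 0.001 level excluded 1, a criterion that compares 2 libraries and not the stages. It was applied to the 18352 isotigs averaging at least 1 RPKM, among them 7 of the 9 members. Isotig05536 and isotig05537 fell below that level. In deep aestivation over non-aestivation 5 of the 7 were higher, where 5.19% of all isotigs were, and 0 were lower, where 4.06% were. These 5 are apolipoprotein B, both vitellogenin isotigs and both microsomal triglyceride transfer protein isotigs. Either pair may come from the same gene, so the counts here and below are of isotigs and not of separate genes. Isotigs with many reads were called more often. Of the 312 with at least 1000 reads over the 3 libraries, 11.9% were higher and 86 isotigs were lower. Apolipoprotein B and both vitellogenin isotigs are among those 312. With median-ratio scaling isotig19382 was no longer called. The median log2 ratio of the 7 was 1.42, and that of all isotigs 0.16. The members were picked with these ratios known, so the counts are given as a description.

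Arousal over non-aestivation, which uses the same non-aestivation library, gave 4 of 7 higher against 3.84% of all isotigs, and 0 lower against 5.21%. Isotig23815, with 5 and 19 reads, was not among them although its share was 4.11-fold higher (1.49 to 14.1). The median of the 7 was 1.98 and that of all isotigs -0.04. Of the 312 isotigs with at least 1000 reads, 13.1% were higher and 60 isotigs were lower in this comparison.

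In arousal over deep aestivation 0 of 7 were higher and 0 lower, against 3.37% and 5.31% of all isotigs. The largest changes there were the 1.68-fold higher isotig17734 and, among members with at least 50 reads, the 1.56-fold lower apolipoprotein B and isotig23815. At 2-fold alone, which 25.6% of all isotigs passed downward, only isotig05535 with its 7 and 3 reads would be lower. The median of the 7 was -0.54, and that of all isotigs was -0.16. Of the 312 isotigs with at least 1000 reads, 12.2% were higher and 37 isotigs were lower in this comparison.

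All 9 members together held 2409 reads in non-aestivation, 14670 in deep aestivation and then 11415 in arousal, of which apolipoprotein B made up 83.4% over the 3 libraries. Their share was 0.236% (0.226 to 0.245), 1.64% (1.62 to 1.67) and 1.21% (1.19 to 1.23). This is 6.97-fold higher in deep aestivation than in non-aestivation (6.68 to 7.28) and 1.36-fold lower in arousal than in deep aestivation (1.33 to 1.39). Without isotig13070 the first fold was 2.84 (2.59 to 3.12), and the second turned to 1.50-fold higher in arousal (1.41 to 1.60). The direction of the sum after deep aestivation therefore depends on apolipoprotein B.

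Likeness of pattern was measured as the Euclidean distance between log2(RPKM + 0.5) values, each centred on its own mean over the 3 libraries, across 3390 other isotigs that had a protein match, 50 or more reads and an RPKM averaging 5 or more. How many isotigs counting error alone would bring as close was not tested. Nearest to apolipoprotein B was a mitochondrial glycine dehydrogenase match, isotig17771, with 6, 55 and 35 reads (distance 0.15), followed by an uncharacterised lancelet match (isotig13720), dystonin (isotig18590), a licorne kinase match (isotig09765) and ubiquitin-conjugating enzyme E2 H (isotig16108). Of the members, isotig23815 came nearest at rank 7 (0.38). Nearest to isotig17734 was a match to the monocarboxylate transporter Slc16a7, isotig13192, with 50, 215 and 399 reads (0.04), then uncoupling protein 2 (isotig14489), nitrilase family member 2 (isotig08549), a cytochrome P450 of family 4 (isotig18393) and isotig19332, whose match has no functional name. The other vitellogenin isotig ranked 60 (0.80) and apolipoprotein B ranked 100 (0.98).

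Major yolk protein 1 (isotig13120), also an abundant secreted protein of this gut, had 25032, 90687 and 101055 reads. It was 4.15-fold higher in deep aestivation than in non-aestivation (4.09 to 4.21) and 1.05-fold higher in arousal than in deep aestivation (1.04 to 1.06). Within libraries, the reads of apolipoprotein B per read of major yolk protein 1 were 0.0708 in non-aestivation (0.0675 to 0.0743), 0.144 in deep aestivation (0.142 to 0.147) and then 0.0881 in arousal (0.0862 to 0.0901). For isotig17734 this ratio was 0.00419 (0.00343 to 0.00508), 0.00506 (0.00461 to 0.00555) and 0.00808 (0.00754 to 0.00866). For isotig14304 it was 0.0167 (0.0151 to 0.0184), 0.0107 (0.0101 to 0.0114) and 0.0156 (0.0148 to 0.0164). Beside major yolk protein 1, deep aestivation thus had the highest ratio for apolipoprotein B and the lowest for isotig14304, while isotig17734 was highest in arousal.

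Other steps of lipid transport were followed through lists of isotigs matched on the same text field. Every count of called isotigs in a list stands beside the same background: of all isotigs, 5.19% stood higher and 4.06% lower in deep aestivation over non-aestivation, and 3.37% higher and 5.31% lower in arousal over deep aestivation. Lipoprotein receptors and their relatives had 24 isotigs, 23 of them with a mean RPKM of at least 1. The list holds low-density lipoprotein receptor relatives, cubilin, sortilin and vitellogenin receptor matches. It was drawn by name, and the names do not show that every isotig in it takes up lipoproteins. In deep aestivation over non-aestivation 3 of 23 were higher and 0 lower, with a median log2 ratio of 0.76 beside 0.16 for all isotigs. In arousal over deep aestivation 1 was higher and 10 lower, with a median of -1.98 beside -0.16 for all. Most of the lower isotigs matched low-density lipoprotein receptor-related protein 4 or 6, a point looked at after the values were seen. The protein 4 matches called lower had log2 ratios from -2.91 to -2.30. They may be pieces of the same transcript, so the count is of isotigs and not of separate genes. A low-density lipoprotein receptor match (isotig23101) had 114, 237 and 14 reads and was 17.9-fold lower in arousal than in deep aestivation (10.5 to 33.3). A cubilin-like isotig (isotig25069) had 5, 13 and 51 reads and was 3.71-fold higher there (1.99 to 7.43). The vitellogenin receptor matches, named after their values were seen, had 103, 82 and 151 reads (isotig20845) and 41, 45 and 76 reads (isotig28838). Neither was called in the comparisons with deep aestivation, and in arousal over non-aestivation isotig28838 was called higher and isotig20845 was not.

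Class B scavenger receptors, which in vertebrates take lipid from lipoproteins at the cell surface, or sit in lysosomes, went apart. The type I match (isotig17642) had 15, 80 and 12 reads and was 6.11-fold higher in deep aestivation than in non-aestivation (3.49 to 11.4) and 7.06-fold lower in arousal (3.82 to 14.2). The member 2 match (isotig06351) had 27, 36 and 139 reads and was 3.65-fold higher in arousal than in deep aestivation (2.51 to 5.42).

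Lipases, which release fatty acids from stored or eaten fat, had 4 of 6 isotigs higher in deep aestivation and 0 lower, and 3 of 6 lower in arousal with 0 higher. Their summed reads were 33 in non-aestivation, 798 in deep aestivation and then 72 in arousal. The match to Rp2 lipase (isotig27803) had 0, 61 and 0 reads, at least 23.3-fold higher in deep aestivation than in non-aestivation and at least 21.5-fold lower in arousal, at the floor of 3 reads in the library without any. A lipase F-like isotig (isotig25663) had 17, 22 and 36 reads and was called in neither comparison. Most of the list's reads in deep aestivation came from a pancreatic triacylglycerol lipase match (isotig14718, named after its values were seen) with 9, 594 and 11 reads. The sums peak in deep aestivation, as the apolipoprotein B reads do. In arousal over non-aestivation 0 of 6 lipase isotigs were called higher, against 3.84% of all isotigs, while apolipoprotein B was called higher.

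Enzymes that make glycerolipids or activate fatty acids for it had 4 of 9 isotigs higher in deep aestivation, 0 lower and 5 neither (median log2 ratio 1.65). Glycerol-3-phosphate acyltransferase, the first step of the pathway (isotig27080), had 10, 39 and 18 reads and was 4.47-fold higher, a log2 fold of 2.16 (1.13 to 3.33). A long-chain fatty acid CoA ligase 4 match (isotig13307) had 124, 93 and 129 reads, a fold of 0.859 (0.649 to 1.13). In arousal over deep aestivation 1 of 9 was higher, the long-chain acyl-CoA synthetase 1 match isotig17375 with 58, 52 and 154 reads (2.80-fold, 2.03 to 3.91), and 0 were lower.

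Proteins of folding and of exit from the endoplasmic reticulum, the route that secreted lipoproteins take, had 0 of 10 isotigs called in either direction in each comparison. Among those with at least 50 reads, the lowest in deep aestivation was a SEC13 match (isotig13812), a coat protein of vesicles leaving the reticulum, with 95, 47 and 93 reads, 1.76-fold lower (1.23 to 2.56). The highest was a protein disulfide isomerase A4 match (isotig16895) with 40, 69 and 65 reads. The reads of the whole list were 0.125%, 0.102% and 0.138% of the libraries. Most of them came from a calreticulin match (isotig15543, named after its values were seen) with 925, 561 and 909 reads. The sum therefore says little about the other isotigs of the list.

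Lipid carriers inside cells had 2 of 23 isotigs higher and 2 lower in deep aestivation, where 5.19% and 4.06% of all isotigs were, which is close to that background. In arousal over deep aestivation 5 were higher and 1 lower, against 3.37% and 5.31% of all. A Niemann-Pick C match (isotig14554), a cholesterol exporter of the lysosome, had 38, 154 and 225 reads and was 4.64-fold higher in deep aestivation (3.24 to 6.81). The intestinal fatty acid binding protein 2 match (isotig19264) had 16574, 2849 and 51380 reads. It was 5.08-fold lower in deep aestivation (4.88 to 5.29) and 17.0-fold higher in arousal than in deep aestivation (16.4 to 17.7). Its direction was the opposite of that of apolipoprotein B in both of these comparisons. A StAR-related lipid transfer domain 13 match (isotig16692), with 36, 46 and 9 reads, was 5.41-fold lower in arousal than in deep aestivation.

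Fatty acid oxidation had 1 of 18 isotigs higher and 2 lower in deep aestivation, where 5.19% and 4.06% of all isotigs were. The median log2 ratio of the list was -0.57 there, beside 0.16 for all isotigs. From deep aestivation to arousal 5 were higher and 1 lower, against 3.37% and 5.31% of all. That median was 1.34, beside -0.16 for all. Of the 23 isotigs matched, 2 were highest in deep aestivation. Of the matches to long-chain acyl-CoA dehydrogenase, isotig13249 had 28, 1272 and 277 reads, 52.0-fold higher in deep aestivation (35.8 to 78.6) and 4.86-fold lower in arousal. Isotig14354 had 39, 9 and 92 reads, 3.78-fold lower (1.80 to 8.88) and then 9.66-fold higher (4.87 to 21.8). The former shares the peak of apolipoprotein B in deep aestivation, and the latter is lowest there. Major yolk proteins had 2 of 3 isotigs higher in deep aestivation, isotig13120 and major yolk protein 2 (isotig03531), which had 661, 1846 and 1708 reads and was 3.20-fold higher (2.92 to 3.50).

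Other large secreted proteins, of the von Willebrand factor and thioester families, had 0 of 5 isotigs called in deep aestivation over non-aestivation. In arousal over deep aestivation the von Willebrand factor match (isotig01105), with 190, 311 and 113 reads, was 2.91-fold lower (2.34 to 3.65) and 0 were higher. The thioester-containing protein matches isotig20928, with 11, 24 and 36 reads, and isotig15064, with 73, 67 and 86, were called in neither.

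**Figure D4:**
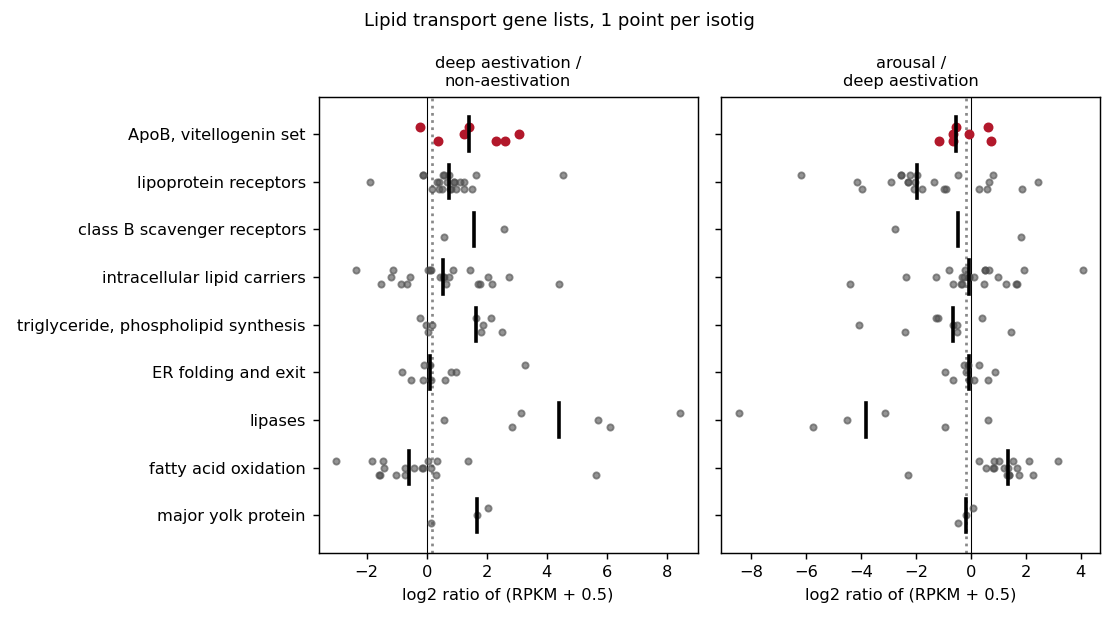
Log2 ratio of RPKM + 0.5 for isotigs of the lipid transport lists with a mean RPKM of at least 1, 1 point per isotig, for deep aestivation over non-aestivation (left) and arousal over deep aestivation (right). Black bars are list medians and the dotted line is the median of all isotigs. The carriers (red) have medians of 1.42 and -0.54, the list of lipoprotein receptors and their relatives 0.76 and -1.98.

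Markers of the tissue and of other cell types were followed beside these values. Gut epithelium markers (24 isotigs of digestive enzymes and villin) held 0.238% of reads in non-aestivation, 0.517% in deep aestivation and then 0.374% in arousal, and 9 of 23 were higher and 1 lower in deep aestivation. Villin (isotig15949), a choice made with its values known, had 2, 6 and 5 reads. Within the list, trypsin-like isotigs went opposite ways, isotig26752 with 1, 405 and 4 reads and isotig13602 with 1220, 7 and 27. The highest marker with at least 50 reads in arousal over deep aestivation was an anionic trypsin match (isotig13029) with 54, 35 and 216 reads. The sum of the list had the order of apolipoprotein B (deep aestivation, arousal, non-aestivation), but only 8 of the 24 isotigs had that order themselves. A maltase 1 match (isotig13364) with 434, 1792 and 1580 reads and a trypsin-like isotig (isotig21645) with 6, 1169 and 12, both singled out with their values known, held most of the list's reads in deep aestivation. The list missed the intestinal fatty acid binding protein 2 match (isotig19264), which had 16574, 2849 and 51380 reads. With that isotig added, the sum would be lowest in deep aestivation and would lose the order of apolipoprotein B. The part of these markers in the difference of apolipoprotein B was not tested.

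Gonad markers held 114 reads in non-aestivation, 103 in deep aestivation, with 63 in arousal over 15 isotigs, with 0 of 10 called in deep aestivation. Of the 15, 5 were at 0 reads in non-aestivation, 2 in deep aestivation and then 5 in arousal. The meiotic synaptonemal complex proteins had at most 1 read in a library (isotig07376 with 0, 0 and 1, isotig11635 with 0, 1 and 0). The most abundant were spermatogenesis-associated 17 (isotig08489) with 43, 42 and 6 reads and spermatogenesis-associated protein 20 (isotig13603) with 35, 17 and 18. The lower sum in arousal came mostly from isotig08489, and the part of gonad cells in the vitellogenin values was not tested.

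Coelomocyte markers, for the immune cells of the body fluid, held 0.271%, 0.314% and 0.187% of reads, with 0 of 6 isotigs called in either comparison. Their ends were dual oxidase 1 (isotig10117) with 14, 25 and 21 reads, a profilin-A match (isotig05206) with 155, 77 and 77, and dual oxidase-A (isotig13477) with 1066, 1223 and 717. Of all isotigs, 5.19% stood higher and 4.06% lower in deep aestivation, and 3.37% higher and 5.31% lower in arousal over deep aestivation. Muscle markers held 0.214%, 0.164% and 0.144%, with 1 of 30 higher and 4 lower in deep aestivation and 3 higher and 0 lower in arousal over deep aestivation. They ranged from titin matches isotig13512 (70, 173 and 158 reads) to isotig01194 (61, 0 and 15), with troponin I (isotig24897) at 30, 23 and 11. Nerve markers held 0.0641%, 0.113% and 0.0891%, with 6 of 29 higher and 0 lower in deep aestivation and 5 higher and 8 lower in arousal over deep aestivation. Acetylcholinesterase matches formed both ends (isotig23247 with 10, 68 and 18 reads, isotig18936 with 17, 5 and 47, isotig14738 with 18, 71 and 8). Every nerve marker called higher in these comparisons was an acetylcholinesterase match. Of those called lower, only the Hu/elav match isotig04942 (43, 40 and 16 reads) was not. The nerve markers other than acetylcholinesterase matches had their fewest summed reads in arousal, so the order of the list's sum comes from the acetylcholinesterase matches. The muscle and nerve sums pool isotigs that went opposite ways. The part of the coelomocyte, muscle and nerve markers in the carriers' values was not tested.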

How the data were processed

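The authors deposited, for each of 3 libraries (1 per stage), whole-number counts of uniquely aligned reads per isotig, the percent of each isotig covered by reads, and RPKM values computed from the counts, the isotig length and the total of aligned reads, per the file headers. The submitters' processing notes name CASAVA 1.5, and the sources used here do not name the aligner or assembler. Isotigs left out of a library's table were taken as 0 reads. The reference gene table shares 0 identifiers with the isotigs, so names come from the best protein match.

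The deposited RPKM values were rebuilt from the counts. Members were found by text and described by read shares with exact intervals, in Python 3.11.15 with scipy 1.17.1. Calls used a pseudocount of 0.5 RPKM, a mean RPKM of at least 1, a 2-fold limit and an exact interval at the 0.001 level. The calls and intervals were tested on simulated counts with Poisson error only. That setting has no variation between animals or libraries, so it cannot show how the calls hold between stages. Groups follow the sample labels, and no test was made between stages. A log2 ratio of RPKM + 0.5 understates changes of isotigs with few reads. Named isotigs are the members, the highest and lowest isotig of each list with at least 50 reads in deep aestivation over non-aestivation and in arousal over deep aestivation, and the 5 nearest in pattern to isotig13070 and isotig17734. The members, the 14 lists and the rules were chosen with earlier results of these data known. Mismatched descriptions were then taken out of the lists by hand. Alternatives were 3 scalings, 2 pseudocounts, 2 filters, exchanged stage labels, a fold alone and smaller member sets. One further list is not reported here.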

Additional observations from a re-analysis of the deposited data

How the results depend on the processing

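No paired analysis was possible because each stage has 1 library, and for the same reason no replicate could be left out. Under the 3 other scalings, 27 of 27 log2 ratios (isotig13070, isotig17734 and the summed members in each comparison) kept their direction and 17 of 18 counts of called members were equal. The exception was 4 instead of 5 higher in deep aestivation over non-aestivation with median-ratio scaling. That scaling shifts every log2 ratio by -0.15, 0.20 and 0.05 (deep aestivation over non-aestivation, arousal over deep aestivation, arousal over non-aestivation), upper-quartile scaling by -0.06, 0.15 and 0.09, and leaving the 20 most abundant isotigs out of the totals by 0.08, 0.07 and 0.15.

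In deep aestivation over non-aestivation, the sum's 2.80 became 2.65, 2.74 and 2.88 under these scalings and isotig13070's 3.08 became 2.93 with median ratios and 3.16 without the 20 isotigs. In arousal over deep aestivation, the sum's -0.44 became -0.25, -0.29 and -0.37, isotig13070's -0.64 became -0.44, -0.49 and -0.57, and isotig17734's 0.75 became 0.95 with median ratios. In arousal over non-aestivation, upper-quartile scaling and leaving out the 20 gave 2.45 and 2.51 for the sum and 2.53 and 2.59 for isotig13070.

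With the non-aestivation and arousal tables exchanged, deep aestivation over non-aestivation had 0 members higher, with 0.44 for the sum, 0.64 for isotig13070 and -0.75 for isotig17734. Arousal over deep aestivation had 5 lower, with -2.80, -3.08 and -2.32. Arousal over non-aestivation had 0 higher and 4 lower, with -2.36, -2.44 and -3.07. That deep aestivation had the most apolipoprotein B could not change, because the exchange leaves the deep aestivation library in place. A fold of 2 alone gave 1 member lower in arousal over deep aestivation, and 5 instead of 4 higher in arousal over non-aestivation. Chosen after seeing the data, the sum without isotig13070 gave 1.51, 0.59 and 2.09 in the 3 comparisons. The other pseudocounts, the filters, members with at least 50 reads and leaving out the apolipoprotein A-I binding protein isotigs moved no count of called members. Depth limits isotig23815 and the apolipoprotein A-I binding protein isotigs most.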

Other observations

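The share of an isotig's length covered by reads did not follow its read count alike in all members. The apolipophorin match isotig21150 was covered over 65.69%, 64.85% and 61.76% of its 714 bp with 78, 58 and 42 reads. Isotig19382, a microsomal triglyceride transfer protein match of 837 bp, was covered over 76.46%, 97.85% and 89.96% with 25, 52 and 52 reads, and isotig23815, of 562 bp, over 43.59%, 86.65% and 71.35% with 5, 28 and 19. The apolipophorin isotig thus had more reads on a shorter sequence in non-aestivation and deep aestivation and was covered less than isotig19382 in all 3 libraries. The longer vitellogenin match, isotig14304, was covered over 98.44%, 99.56% and 94.84%, lowest in arousal, where it had the most reads.

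Apolipoprotein B was the only member with gene ontology terms for a lipoprotein particle and for lipid metabolism in the deposited tables. The vitellogenin, apolipophorin and microsomal triglyceride transfer protein isotigs carried none.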
